A study of Mus musculus with 20 samples.

Results

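The genes described here encode the constant regions of the antibody heavy chains (Ighg1, Ighg2b, Ighg2c, Ighg3, Igha, Ighm and Ighd), the kappa light chain constant region (Igkc), the joining chain of polymeric antibody (Jchain) and the polymeric immunoglobulin receptor (Pigr). They were chosen by name, with no measured value in the rule, and all 10 were found among the 26619 genes of the count table. The mRNA came from the distal colon (DC) of 20 C57BL/6 mice, each giving 1 library. Every mouse was fed the Total Western Diet (TWD), a diet modelled on nutrient intake in the United States, for 6 weeks after weaning. For 3 further weeks, 5 mice stayed on the TWD without resistant potato starch (0% RPS, the control), and groups of 5 received the TWD with 2, 5 or 10% RPS by weight. RPS is a raw starch that largely escapes digestion and reaches the large bowel. Whole tissue was sequenced, so fewer cells of a type and less RNA per cell cannot be told apart.

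In the gut wall, most antibody is made by plasma cells of the lamina propria and is of the IgA class. The joining chain links IgA into dimers and IgM into pentamers, and these polymers are the cargo that Pigr, a receptor on the basolateral side of epithelial cells, carries into the lumen. IgG lacks a joining chain and is not carried by Pigr. The IgG subclasses are encoded by separate constant region genes of the heavy chain locus, and a B cell that switches class joins its variable region to another of these genes.

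On GRCm39 the heavy chain genes lie on the minus strand of chromosome 12, in the order Igha (113218450 to 113223856), Ighg2c (113248945 to 113252552), Ighg2b (113266585 to 113271553), Ighg1 (113288860 to 113294143), Ighg3 (113319844 to 113324852), Ighd (113370224 to 113379944) and Ighm (113382178 to 113386350). Igkc lies on the plus strand of chromosome 6 (70703419 to 70703950), Jchain on the minus strand of chromosome 5 (88667668 to 88675750) and Pigr on the plus strand of chromosome 1 (130754397 to 130779986).

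The short hinge exon of the IgG genes is shown because it differs between the subclasses in length and cysteines, and because it bears on whether a 50-base read can be told apart between them. In each gene it is exon 2 of 4 of the secreted form, on the minus strand of GRCm39. Capitals mark cysteine codons in the annotated reading frame. Cysteines of the hinge form the disulfide bonds between paired heavy chains.
Ighg1, chr12:113293464-113293502: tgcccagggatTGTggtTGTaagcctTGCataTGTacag
Ighg2b, chr12:113270881-113270946: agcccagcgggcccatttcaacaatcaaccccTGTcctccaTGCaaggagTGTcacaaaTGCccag
Ighg2c, chr12:113251883-113251945: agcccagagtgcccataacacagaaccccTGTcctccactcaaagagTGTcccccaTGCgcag
Ighg3, chr12:113324149-113324196: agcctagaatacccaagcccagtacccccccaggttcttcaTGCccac
The hinge exon is 39 bases long with 4 cysteine codons in Ighg1, 66 bases with 4 in Ighg2b, 63 bases with 3 in Ighg2c and 48 bases with 1 in Ighg3. None of the 88 to 115 windows of 50 bases that touch it occurs in another gene's annotated transcripts. Over all annotated transcripts of each gene, 0.393% of the 50-base windows of Ighg1, 4.15% of Ighg2b, 5.49% of Ighg2c and 1.58% of Ighg3 also occur in another gene, in each case another IgG constant region gene. Igha, Ighm, Ighd and Igkc had 0 shared windows.

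The 3′ tail that only the secreted form holds is shown for Igha and Ighm because it carries the cysteine to which the joining chain binds, in capitals here. Each tail runs from the point where the membrane form splices away to the stop codon, and both are on the minus strand.
Igha, chr12:113222388-113222449: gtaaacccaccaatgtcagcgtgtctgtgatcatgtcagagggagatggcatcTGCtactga
Ighm, chr12:113384487-113384548: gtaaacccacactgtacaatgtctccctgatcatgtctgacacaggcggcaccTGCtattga
The tail holds 59 coding bases in both genes. In the 4 IgG genes it holds 5 coding bases. A count per gene sums reads of the secreted and membrane forms, so the forms were not separated here.

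Libraries of control mice held 31.25 to 34.97 megacounts (M) and were deeper than those of all mice at 10% RPS (18.4 to 26.6 M), with 24.5 to 31.1 M at 2% and 22.3 to 30.4 M at 5% RPS. Levels are given as CPM, counts per megacount of library after scaling of the libraries by the trimmed mean of M-values. The labels of 3 mice disagree on the diet: RS10_717 is 5% RPS by the description used here and 2% by its treatment label, RS10_725 is 10% and 5%, and RS10_748 is 2% and 10%. Control mouse RS10_703 stood apart in IgA-related genes, so results for those are given with and without it. Pancreas markers summed to 3990 CPM in mouse RS10_721 (5% RPS) and 363 CPM in RS10_784 (10% RPS) and to at most 9.55 CPM elsewhere. Epithelial markers (11236 to 17429 CPM over 8 genes) and smooth muscle markers (5303 to 11837 CPM over 6 genes) were present in every library.

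To set the genes in order, levels were divided by the length of each gene's annotated exons. Igkc was highest, with a median over the 20 mice of 1688 CPM per kilobase, followed by Pigr (895), Igha (505), Jchain (114), Ighm (23.3), Ighd (15.3), Ighg1 (3.89), Ighg2b (3.86), Ighg3 (0.675) and Ighg2c (0.625 CPM per kilobase). Jchain lay below Igha and above Ighm in 20 of 20 mice. Neighbours with no stable order were Ighg1 and Ighg2b, where Ighg1 was higher in 10 of 20 mice, and Ighg3 and Ighg2c, where Ighg3 was higher in 7 of 20 (14 of 20 by transcript length, described next). Igkc was above Pigr in 16 of 20 mice and Pigr above Igha in 18 of 20. The annotated exons include long 3′ ends of the membrane forms. Divided instead by the length of the secreted or main coding transcript, Igha (1226) moved above Pigr (935 CPM per kilobase) and was the higher in 12 of 20 mice, and Ighd (36.1) moved above Ighm (29.4 CPM per kilobase) and was the higher in 16 of 20, where by exon length Ighm was the higher in 19 of 20.

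The plot of all 10 genes by mouse shows the levels behind the comparisons that follow.

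**Figure D1:**
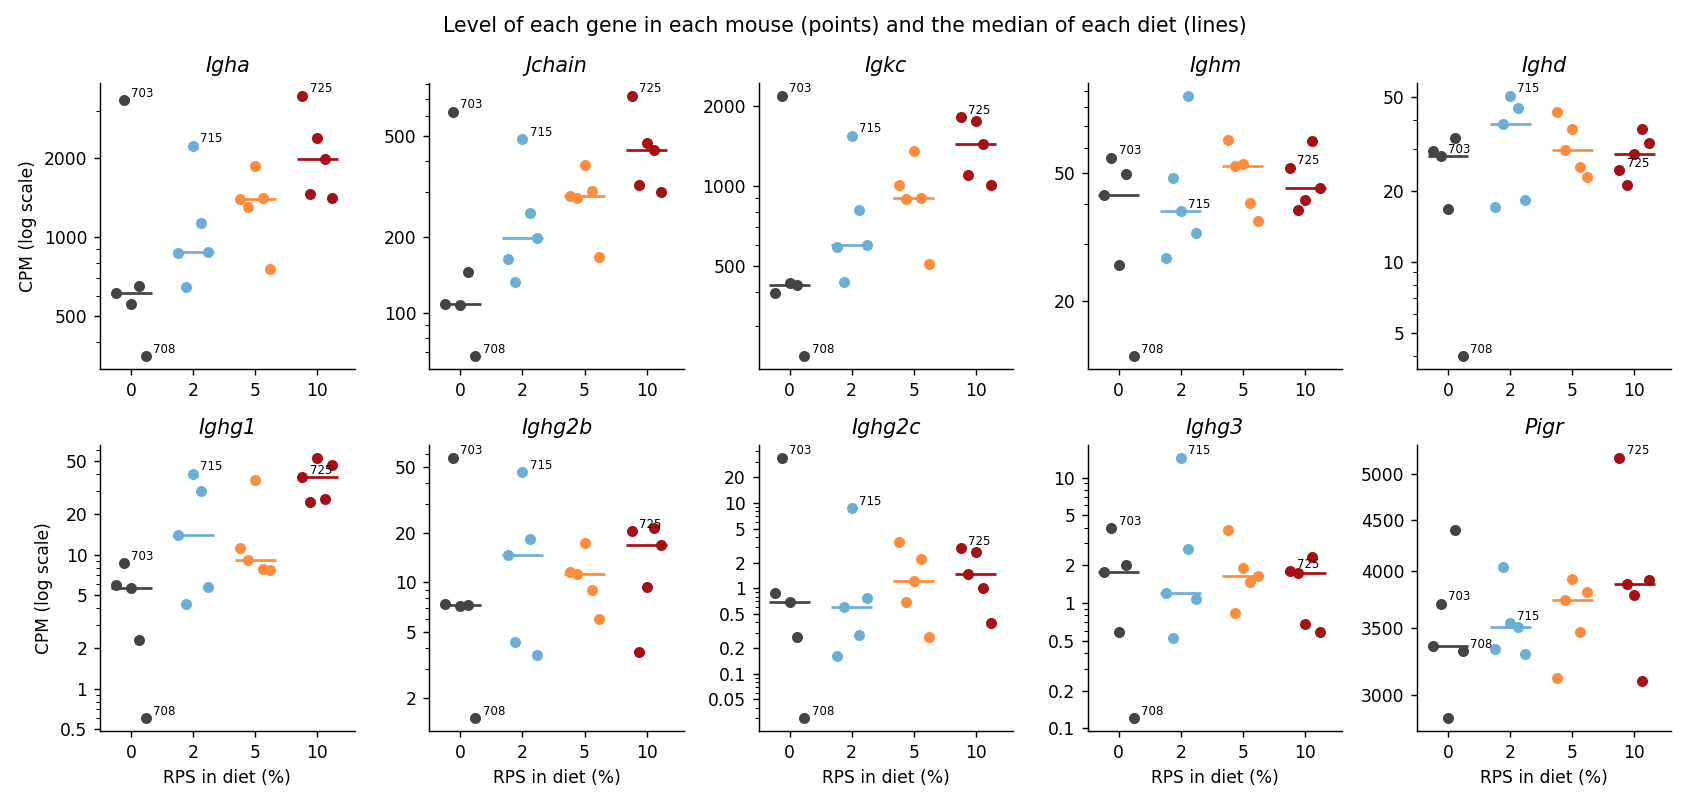
Level of each gene in CPM (vertical axes, log scale) in each of the 20 mice (points) against the percent of RPS in the diet, with the median of each diet as a line and mice RS10_703, RS10_708, RS10_715 and RS10_725 marked by number. Ighg1 is the gene in which all 5 mice at 10% RPS lie above all 5 control mice, and in Igha, Jchain and Igkc control mouse RS10_703 lies among the highest mice of any diet.

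Ighg1, which encodes the constant region of IgG1, was the gene of this group with the largest fold rise at 10% RPS. Control mice held 0.603, 2.29, 5.65, 5.90 and 8.61 CPM. Mice at 10% RPS held 24.8, 25.9, 37.6, 46.8 and 52.5 CPM. The groups do not overlap: the lowest mouse at 10% RPS held more than the highest control mouse. By the treatment label they overlap, since mouse RS10_748, with 5.71 CPM, then belongs to 10% RPS. Of all 17893 genes tested, 1.13% likewise had all 5 mice at 10% RPS above all 5 controls, and none of the other 9 genes described here did. The mean was 4.61 ± 3.17 CPM (SD, n = 5) at 0% RPS and 37.5 ± 12.3 CPM at 10% RPS, an 8.15-fold rise (3.03 ± 0.71 on the log2 scale, SE).

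At the thresholds used in the study (adjusted p of at most 0.05 and a fold of at least 1.5), edgeR's quasi-likelihood test with Benjamini-Hochberg adjustment over all tested genes called 0 of the 10 genes at 10% RPS, against 0.0391% of all genes (7 of 17893, all higher). Ighg1 had an adjusted p of 0.0837. Of the 10 log2 fold changes 7 were positive, where 46.8% of all tested genes were, and their median was 0.35 against -0.015 over all tested genes. Without adjustment, 1 of the 10 genes, Ighg1, was higher at p under 0.05, against 7.32% of all tested genes. DESeq2, the test that the study used, called Ighg1 with an adjusted p of 0.00196 and none of the 8 others to which it gave a p-value (it gave none for Ighg2c), against 1.24% of the genes with an adjusted p (210 of 16875). By limma-voom the adjusted p of Ighg1 was 0.0512. The call of Ighg1 thus depends on the test. It also changed with the mice included, since edgeR called Ighg1 without RS10_703 (adjusted p = 0.0497) or without RS10_727 of the 10% RPS group (adjusted p = 0.0421). In these fits edgeR called 109 and 188 genes of all tested, against 7 with all mice, and the adjusted p of a gene draws on all tested genes.

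Lower levels of RPS gave intermediate and scattered Ighg1. At 2% RPS the mice held 4.31, 5.71, 14.0, 29.6 and 40.1 CPM, and at 5% RPS 7.68, 7.83, 9.04, 11.1 and 36.0 CPM. Both ranges overlap that of the controls. The log2 fold change against 0% RPS was 2.02 ± 0.69 (SE) at 2% RPS and 1.64 ± 0.69 at 5% RPS, with edgeR adjusted p-values of 0.9997 and 0.489. The high mice were RS10_715 and RS10_716 at 2% RPS and RS10_719 at 5% RPS. At these levels edgeR called 0 of the 10 genes and 0% of all genes. At an unadjusted edgeR p under 0.05, 1 of the 10, Ighg1, was higher at each level. Of all 17893 tested genes, 124 were likewise higher at 2% RPS and 839 at 5% RPS. DESeq2 called 0 of the 9 genes to which it gave a p-value at both levels.

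Over the 4 diets the fitted slope of Ighg1 was 0.22 log2 units per percent of RPS (edgeR adjusted p = 0.0855, DESeq2 adjusted p = 0.0275). The DESeq2 trend test called 973 of the 17359 genes with an adjusted p, and 1 of the 10 genes described here, Ighg1. With edgeR, 0 of the 10 genes had a trend at an adjusted p of at most 0.05, against 2.10% of all genes, and 0 of 10 differed between any diets, against 0.0727%. At an unadjusted p under 0.05, Ighg1, Jchain, Igkc and Igha rose with RPS, which is 4 of 10 against 9.00% of all genes. The 3 genes besides Ighg1 followed one another so closely that they are not separate observations (described below).

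The other IgG genes did not share the pattern of Ighg1. Ighg2b, for IgG2b, measured 1.51, 7.24, 7.29, 7.43 and 56.6 CPM in control mice and 3.81, 9.39, 16.7, 20.4 and 21.2 CPM at 10% RPS. The control range spans that of 10% RPS, with mouse RS10_703 at its top. Ighg2c, for IgG2c, the form that C57BL/6 mice carry in place of IgG2a, measured 0.0301, 0.268, 0.683, 0.879 and 33.4 CPM in controls and 0.392, 1.01, 1.47, 2.69 and 2.93 CPM at 10% RPS. Mouse RS10_703 again held the highest value, and the lowest, in mouse RS10_708, is a single read. Ighg3, for IgG3, ranged from 0.121 to 3.96 CPM in controls and from 0.588 to 2.33 CPM at 10% RPS, and its highest value of the series, 14.3 CPM, was in mouse RS10_715 at 2% RPS. The log2 fold changes at 10% RPS were -0.15 ± 0.81 for Ighg2b, -2.05 ± 1.35 for Ighg2c and -0.24 ± 0.87 for Ighg3 (SE, edgeR adjusted p of 0.951, 0.503 and 0.926). All 3 turned positive without mouse RS10_703, at 1.30, 1.86 and 0.35, none of them called.

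Within the IgG genes the share of Ighg1 was compared next. Shares are of read counts, and their intervals are 95% Wilson binomial intervals, which cover counting error only. Ighg1 made up 8.39% of IgG reads in the lowest control mouse, RS10_703 (interval 7.48 to 9.39%), 26.7% in the median and 39.9% in the highest (35.5 to 44.5%). At 10% RPS the corresponding shares were 51.3% (48.6 to 54.1%), 72.5% and 80.4% (78.4 to 82.4%). The groups do not overlap. Shares at 2% RPS ran from 36.7 to 58.0% and at 5% RPS from 37.2 to 63.8%, overlapping the controls. The IgG reads behind these shares numbered from 75 in control mouse RS10_708 to 3243 in RS10_703.

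Ighg1 remained a small part of all heavy chain reads, of which there were 12372 to 110439 per mouse. It made up 0.162% (interval 0.105 to 0.250%), 0.307% and 0.919% (0.796 to 1.06%) in the lowest, median and highest control mouse. At 10% RPS it made up 1.05% (0.989 to 1.12%), 1.61% and 3.02% (2.86 to 3.20%), again without overlap with the controls. By the treatment label, which moves mouse RS10_748 with 0.608% into the 10% RPS group, the groups overlap.

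**Figure D2:**
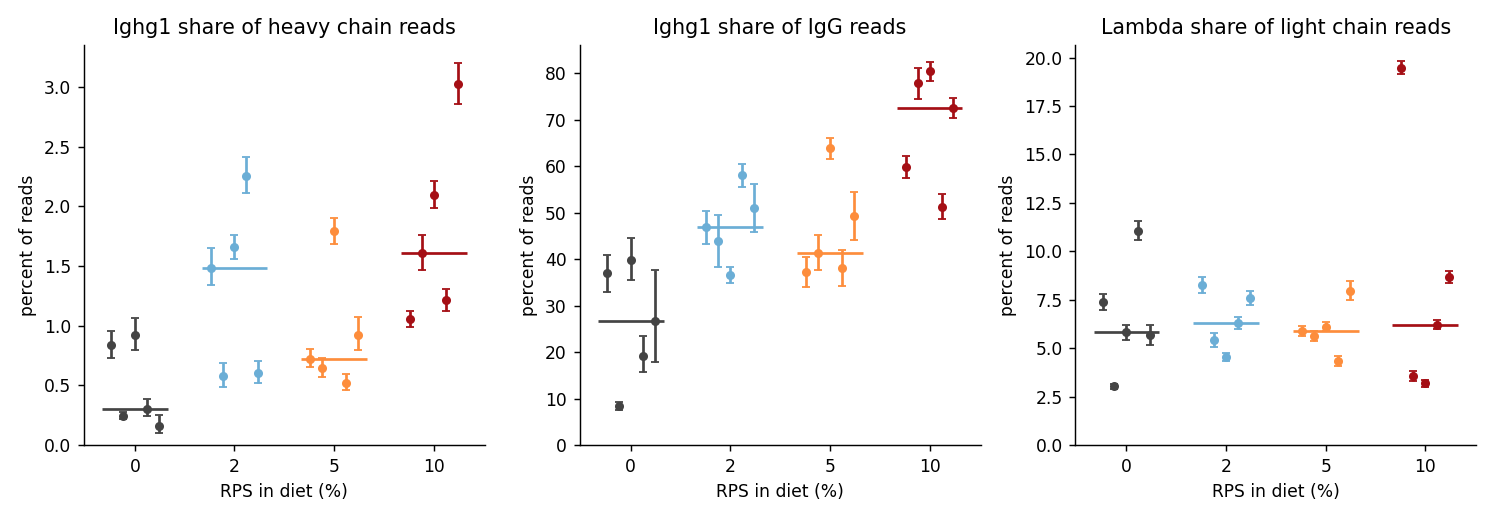
Share of reads in each mouse (points) with its 95% Wilson interval (bars) and the median of each diet (lines), by percent of RPS in the diet, for Ighg1 among the 7 heavy chain genes, for Ighg1 among the 4 IgG genes, and for the lambda genes among light chain reads. The Ighg1 shares at 10% RPS lie above those of all 5 control mice, and in the lambda share a single mouse at 10% RPS stands at 19.5%.

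Igha, the IgA constant region and the main heavy chain of the gut, dominated in every mouse. Its share of heavy chain reads ran from 86.1 to 96.1% over the 20 mice, with a median of 90.8% at 0% RPS and 94.1% at 10% RPS and overlapping ranges (87.3 to 94.7% and 90.9 to 96.1%). Control mice held 353, 558, 616, 653 and 3308 CPM of Igha. Mice at 10% RPS held 1407, 1452, 1987, 2370 and 3434 CPM. Every mouse at 10% RPS lay above 4 of the 5 controls, and the fifth control, RS10_703, lay above 4 of the 5 mice at 10% RPS. Medians were 876 CPM at 2% RPS and 1400 CPM at 5% RPS. With all mice the log2 fold change at 10% RPS was 0.96 ± 0.53 (SE). The edgeR p of Igha was 0.0909 without adjustment and 0.410 adjusted over all tested genes, so it was not called.

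Jchain and Igkc gave the same picture. Control mice held 67.7, 108, 109, 145 and 623 CPM of Jchain, the joining chain, and mice at 10% RPS 302, 320, 441, 470 and 720.6 CPM. For Igkc the values were 230, 396, 425, 433 and 2178 CPM in controls and 1007, 1098, 1442, 1761 and 1815 CPM at 10% RPS. The highest control in both genes was again mouse RS10_703. Their log2 fold changes were 1.10 ± 0.53 and 0.96 ± 0.52 (SE, edgeR adjusted p of 0.338 and 0.396).

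Leaving out mouse RS10_703 changed these calls. With the other 19 mice, edgeR called 4 of the 10 genes at 10% RPS, against 0.606% of all genes (109 of 18001), and the same 4 were called by DESeq2. They were Igha (log2 fold change 1.98 ± 0.38, SE, edgeR adjusted p = 0.0298), Jchain (2.08 ± 0.39, adjusted p = 0.0286), Igkc (1.95 ± 0.36, adjusted p = 0.0286) and Ighg1 (3.38 ± 0.78, adjusted p = 0.0497). Igha, Igkc and Jchain then also had a trend over RPS (adjusted p of 0.0208, 0.0211 and 0.0229), which Ighg1 did not (adjusted p = 0.0840). Nothing in the labels sets this mouse apart. It is known as unusual only from its own values, so the fit without it is no independent support for a diet difference. Its B cell sum (164 CPM) was the highest of the controls and its T cell sum (22.8 CPM) the highest of the 20 mice, and their part in the result was not tested.

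**Figure D3:**
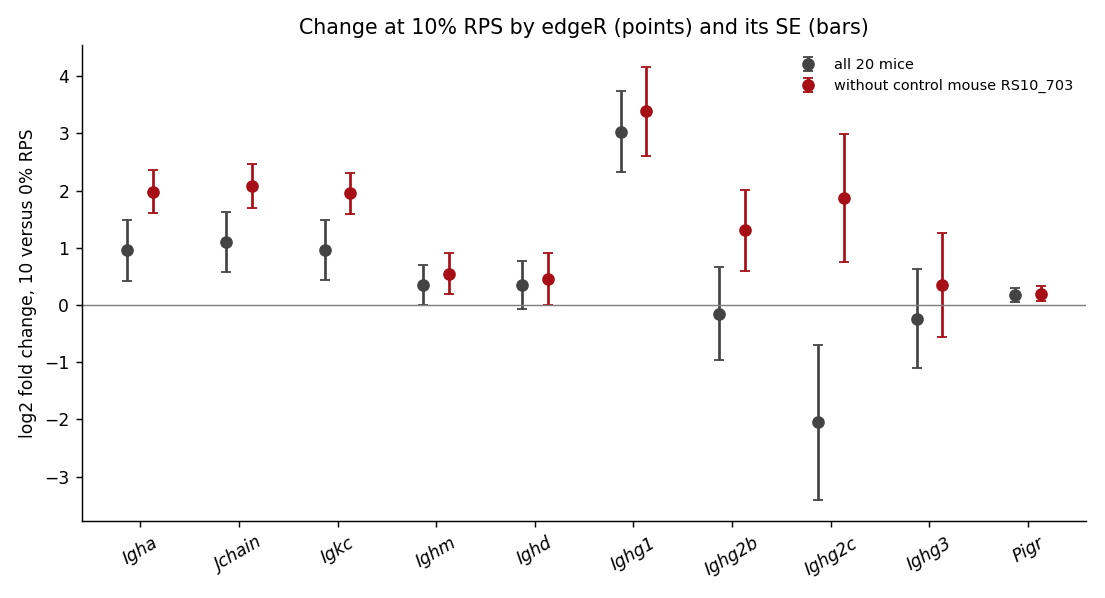
Log2 fold change at 10 versus 0% RPS (vertical axis) of each gene by edgeR, with its SE as bars, from all 20 mice and without control mouse RS10_703. Igha, Jchain and Igkc move from about 1 to about 2 and Ighg2b, Ighg2c and Ighg3 turn from negative to positive, while Ighg1 moves from 3.03 to 3.38 and Pigr from 0.17 to 0.20.

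The genes of dimeric IgA kept a near fixed ratio across mice. There were 17.7 to 22.6 Jchain reads per 100 Igha reads over the 20 mice, while Igha itself spanned 353 to 3434 CPM. Pearson's r of log2 CPM was 0.99 for Igha and Jchain (Spearman's rho 0.997) and 0.99 for Igha and Igkc (rho 0.98) over 20 mice, and it was 0.99 in both pairs when each mouse was expressed as its deviation from its diet mean. The values share a library and its scaling and are given as description. Mouse RS10_703 lay on the same line, with high Igha and Jchain in proportion.

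Ighg1 followed Igha more loosely (r = 0.78, rho = 0.78, and r = 0.67 within diets), and r was 0.67 without the 2 mice farthest from the median of Ighg1. Mouse RS10_703 had the highest Igha of the controls with 8.61 CPM of Ighg1, less than any mouse at 10% RPS. Within diets r with Igha was 0.85 for Ighg2b and 0.88 for Ighg2c, but over the 20 mice it was 0.77 and 0.79, near that of Ighg1. Without the 2 mice farthest in each gene, with RS10_703 among them, r over the remaining mice was 0.62 for Ighg2b and 0.74 for Ighg2c. Ighm and Ighd, which are transcribed together in naive B cells, followed each other (r = 0.87, and 0.72 without mice RS10_708 and RS10_716) more than they followed Igha (r = 0.57 and 0.52).

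**Figure D4:**
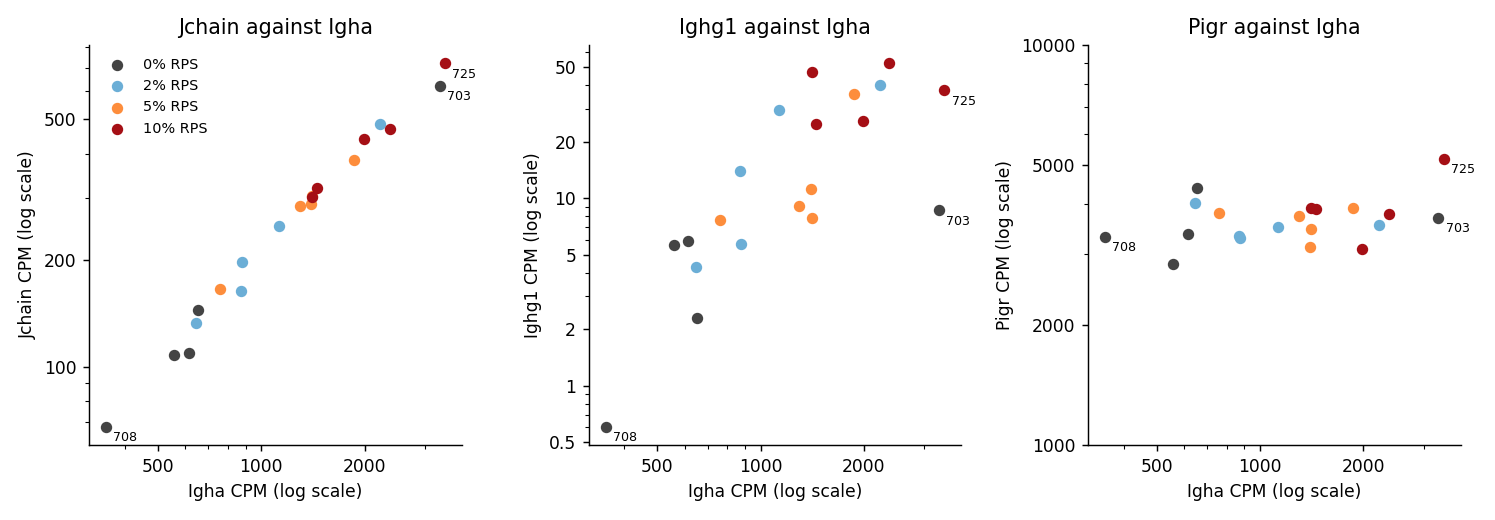
Jchain, Ighg1 and Pigr (vertical axes) against Igha (horizontal axes), all in CPM on log scales, with 1 point per mouse coloured by diet and mice RS10_703, RS10_708 and RS10_725 marked by number. Jchain lies on a line with Igha, Ighg1 is more scattered with control mouse RS10_703 below the mice of similar Igha, and Pigr stays between 2843 and 5189 CPM.

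Ighm and Ighd, the IgM and IgD constant regions, showed no order by diet. From 0 to 10% RPS the ranges of Ighm were 13.4 to 55.8, 27.3 to 86.8, 35.5 to 63.3 and 38.3 to 62.7 CPM. Those of Ighd were 3.98 to 33.4, 17.1 to 50.3, 22.8 to 43.1 and 21.1 to 36.3 CPM. Control mouse RS10_708 was lowest in both, and also in Igha, Jchain, Igkc and all 4 IgG genes. It also had the lowest sum of the 12 B cell and follicle genes, 23.96 CPM. The median of the control mice was 125 CPM, and the mice fed RPS held at least 79.6 CPM. The log2 fold changes at 10% RPS were 0.35 ± 0.35 for Ighm and 0.35 ± 0.42 for Ighd (SE, edgeR adjusted p of 0.677 and 0.746).

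Pigr, which carries polymeric antibody across the epithelium, was the most evenly expressed gene of the 10. Control mice held 2843, 3320, 3364, 3704 and 4390 CPM. Mice at 10% RPS held 3101, 3784, 3881, 3917 and 5189 CPM, and the ranges overlap. Its log2 fold change was 0.17 ± 0.12 at 10% RPS, 0.035 ± 0.12 at 5% and 0.0086 ± 0.12 at 2% (SE, edgeR adjusted p of 0.518, 0.949 and 0.9997). With Pigr steady and Igha variable, Igha reads per 100 Pigr reads had medians of 18.3 at 0% RPS, 26.6 at 2%, 40.6 at 5% and 62.6 at 10% RPS, and the ranges overlapped, since RS10_703 held 89.3. Pigr followed Igha weakly (r = 0.36, and 0.085 without mice RS10_708 and RS10_725). An antisense transcript, Gm15848, overlaps Pigr, and whether counting used strand is not stated.

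The light chain was mainly kappa. The lambda constant region genes Iglc1, Iglc2 and Iglc3 together made up 3.03 to 19.5% of light chain reads. The highest share, 19.5% (interval 19.2 to 19.8%), was in mouse RS10_725, with 250 CPM of Iglc1, 109 CPM of Iglc2 and 79.9 CPM of Iglc3, and the next was 11.0% in a control mouse. Medians by diet were 5.82, 6.30, 5.89 and 6.22% from 0 to 10% RPS. The log2 fold changes at 10% RPS were 2.13 ± 0.66, 1.48 ± 0.63 and 1.98 ± 0.60 (SE, edgeR adjusted p of 0.148, 0.283 and 0.134). DESeq2 called Iglc1 and Iglc3, against 1.24% of the genes with an adjusted p. Iglc3 passed the edgeR trend test (adjusted p = 0.0359), as did 2.10% of all genes. Without mouse RS10_725, whose labels disagree, the edgeR log2 fold changes were 1.14, 0.37 and 1.03. As with all mice, edgeR called none of the 3 at 10% RPS. DESeq2 was not run without this mouse, and the trend of Iglc3 without it is not reported here. Of the windows of 50 bases, 7.65% of Iglc2 and 10.7% of Iglc3 are shared between these 2 genes, so their split is uncertain. Ighe, for IgE, had 0 to 17 reads per mouse and did not pass the filter of the edgeR fit on all mice.

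Other genes of the antibody pathway were counted in lists chosen by role. Of 12 plasma cell genes, edgeR called 0 at 10% RPS, and all 12 had a positive log2 fold change with a median of 0.46, against a median of -0.015 over all tested genes. The largest were Mzb1, a chaperone of antibody assembly (1.32 ± 0.45, adjusted p = 0.172), Tnfrsf17, the plasma cell survival receptor BCMA (1.22 ± 0.34, adjusted p = 0.103), and Irf4, a transcription factor of plasma cells (0.80 ± 0.27, adjusted p = 0.164). Tnfrsf17 passed the trend test (adjusted p = 0.0279), with means of 0.912 ± 0.641 (0% RPS) and 2.12 ± 0.580 CPM (10% RPS; SD, n = 5). DESeq2 called 1 of the 12 at 10% RPS, Tnfrsf17 (adjusted p = 0.0273), against 1.24% of the genes with an adjusted p. In its trend test DESeq2 called 2 of the 12, Tnfrsf17 and Irf4, against 973 of 17359 genes with an adjusted p. Without mouse RS10_703, edgeR called 3 of the 12, Irf4, Mzb1 and Tnfrsf17, at 10% RPS, where it called 0.606% of all genes. Whether the share of plasma cells in the tissue differed was not tested.

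B cell and follicle genes were called in 0 of 12 at every level and in the trend. As in the plasma cell list, all 12 log2 fold changes at 10% RPS were positive. Their median was 0.48, against -0.015 over all tested genes. Ms4a1, Cr2 and Fcrla, which are surface or B cell specific proteins, had the largest values (0.62, 0.60 and 0.54, adjusted p of at least 0.506). Among class switch and survival genes 9 of 14 were expressed enough to be tested and 0 were called. Their largest values were 0.97 ± 0.37 for Il10, a cytokine (adjusted p = 0.219), and 0.75 ± 0.46 for the BAFF receptor gene Tnfrsf13c (adjusted p = 0.464). The 8 genes of plasmablast homing held 0 calls. Of these, Ccr10, the receptor that brings IgA plasmablasts to the colon, had 0.88 ± 0.35 (adjusted p = 0.233), Ccl28, its epithelial ligand, 0.31 ± 0.13 (adjusted p = 0.278) and Ccr9, a receptor for small bowel homing, -0.32 ± 0.20 (adjusted p = 0.466). Without mouse RS10_703, edgeR called 1 of the 8, Ccr10, where it called 0.606% of all genes. Ccr10 followed Igha (r = 0.91), one of the genes whose values set this mouse apart.

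Of 9 antibody receptor genes, edgeR tested 8 and called 0, and DESeq2 called 0 at 10% RPS. In its trend test DESeq2 called 1 of the 9, Fcamr, against 973 of 17359 genes with an adjusted p. Fcgr4, an activating IgG receptor, had 0.58 ± 0.34, Fcamr, a receptor for IgA and IgM, 0.50 ± 0.16, and Fcgrt, the neonatal Fc receptor, -0.26 ± 0.11 (edgeR adjusted p of 0.432, 0.149 and 0.253). Among 12 genes of signals known to act on Pigr expression, Irf1, an interferon-induced transcription factor, was called at 10% RPS. It rose from 134 ± 16.2 to 209 ± 25.4 CPM (SD, n = 5). Its change was 0.64 ± 0.10 on the log2 scale (SE, edgeR adjusted p = 0.00929), and it passed the trend test (adjusted p = 0.00067). Relb, a subunit of NF-kappaB, had -0.32 ± 0.099 (adjusted p = 0.128). Pigr itself did not pass in the same fit.

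Markers of other cells were counted in the same way. All 8 epithelial markers had positive values at 10% RPS (median 0.22), with 0 called by edgeR on all mice. DESeq2 called 2 of them, Cdx2 and Krt20, against 1.24% of the genes with an adjusted p. Its trend test called the same genes, against 973 of 17359 genes with an adjusted p. Krt20, a keratin of mature surface cells, had 0.91 ± 0.23 and passed edgeR's trend test (adjusted p = 0.0249). Cdx2 had 1.44 ± 0.44 and Muc2 0.32 ± 0.15. Without mouse RS10_703, edgeR called 1 of the 8, Cdx2, where it called 0.606% of all genes. All 6 macrophage markers were negative (median -0.38, 0 called by edgeR and Cd68 by DESeq2), led by Cd68 (-0.60 ± 0.17), Cx3cr1 (-0.43) and Adgre1 (-0.40). Of 6 smooth muscle markers 0 were called, with Myl9, Acta2 and Tagln between -0.27 and -0.075, and of 6 T cell markers 0 were called, with 0.59 for Cd3g, -0.34 for Cd3e and -0.29 for Cd8a. The pancreas markers Pnlip, Cel and Cpb1 had log2 fold changes of 6.78, 5.64 and 4.30 and 0 calls, with mouse RS10_784 as the high library at 10% RPS. Without mouse RS10_784 the change of Ighg1 was 2.94 on the log2 scale (edgeR adjusted p = 0.189). As with all mice, edgeR called 0 of the 10 antibody genes. Over all tested genes this fit called 5, against 7 with all mice. At an unadjusted edgeR p under 0.05 it had 2122 genes, against 2718. The part of any of these markers in the antibody results was not tested.

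Genes other than immunoglobulin genes were ranked by how closely they followed Igha, Ighg1 and Pigr over the 20 mice, among the 15133 genes whose mean level reached 1 CPM. Closest to Igha were Ly6c2, a surface protein of the Ly6 family (r = 0.96, rho = 0.93), Irf4 (r = 0.93, rho = 0.93), Gm30211 (r = 0.92, rho = 0.90), Ccr10 (r = 0.91, rho = 0.88) and 2010309G21Rik (r = 0.91, rho = 0.88). Gm30211 overlaps Igkc and 2010309G21Rik overlaps Iglc1 and Iglc3, and how reads in the overlap were assigned is not given in the sources used here. Closest to Ighg1 were Irf4 (r = 0.85, rho = 0.79), Dag1 (0.84, 0.78), Nvl (0.83, 0.71), Arhgap1 (0.83, 0.75) and Ipo9 (0.82, 0.75). Closest to Pigr was Ccl28, like Pigr a product of the epithelium (r = 0.81, rho = 0.76), then Etv3 (0.76, 0.78), Mical2 (0.72, 0.85), Slc27a2 (0.72, 0.53) and H2-Q2 (0.71, 0.48). Without the 2 mice farthest in Pigr, r fell to 0.34 for Slc27a2 and 0.46 for H2-Q2 and was 0.74 for Ccl28.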

How the data were processed

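Polyadenylated RNA of 20 distal colon samples was sequenced as stranded libraries with 50-base single reads. The authors trimmed and filtered reads by quality, mapped them to GRCm39 in CLC Genomics Workbench and deposited raw read counts per gene. Annotation release, strand setting and handling of reads with several matches are not given in the sources used here, which bears on the similar IgG genes and on overlapping transcripts. Gene symbols came from GENCODE vM39 (26338 of 26619 identifiers matched). Sequences were read from the GRCm39 genome and positions are 1-based.

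Groups followed the description label, with mice as replicates. Mouse numbers are unique, so nothing pairs mice. Counts were tested with edgeR 4.0.16 (R 4.3.3; filterByExpr with a minimum count of 10, TMM, robust quasi-likelihood F-test, 1 fit over 4 diets), with Benjamini-Hochberg adjustment over 17893 genes. SE is the log2 fold change divided by the square root of F. Trend and any-difference tests had no fold threshold. log2 CPM used a prior count of 2. Alternatives were DESeq2 1.42.0, limma-voom (limma 3.58.1), RLE scaling, library sizes without immunoglobulin genes, no filter, no robust step, only the diets compared, no fold threshold, the treatment label, omission of the 3 mice with conflicting labels and omission of each mouse. DESeq2 with other labels or without RS10_703, omission of RS10_703 with RS10_721, and division by transcript length were added after the data were seen. The procedure was tested on simulated counts.

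Genes named from the lists were those called plus the 3 tested with the largest absolute log2 fold change at 10% RPS, of which 2 are not reported here. The genes described and the lists were chosen with earlier results of these data known.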

Additional observations from a re-analysis of the deposited data

Results flagged for a closer look

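Single mice stood far from the other 4 of their diet, by a gap above 0.71 of the group's range, in 14 of 80 checks of gene levels and read ratios. About 4 would pass if values within a diet were normally distributed. The levels were checked as CPM without a log scale and normality was not tested, so 4 is no chance expectation for these data. Several of these checks are of genes that move together and are not separate.

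At 0% RPS, mouse RS10_703 held 3308 CPM of Igha (next mouse 653), 2178 CPM of Igkc (next 433), 623 CPM of Jchain (next 145), 56.6 CPM of Ighg2b (next 7.43), 33.4 CPM of Ighg2c (next 0.879) and 31.6 CPM of Iglc2 (next 9.18). In the same diet, mouse RS10_704 held 77.5 Igkc reads per 100 Igha reads (next 65.8).

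Mouse RS10_715 at 2% RPS held 8.59 CPM of Ighg2c (next 0.778) and 14.3 CPM of Ighg3 (next 2.72). Mouse RS10_719 at 5% RPS held 36.0 CPM of Ighg1 (next 11.1).

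At 10% RPS, mouse RS10_725 held 250 CPM of Iglc1 (next 69.6), 109 CPM of Iglc2 (next 23.7) and 79.9 CPM of Iglc3 (next 26.5), and its 52.9 Igkc reads per 100 Igha reads were the lowest of its diet (next 71.6). The cause was not tested in any of these mice.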

How the results depend on the processing

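Replicate numbers are unique to a mouse. No paired analysis was possible because the diets share no replicate number.

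With edgeR on all mice, 0 of the 10 genes were called at 10% RPS. The count was 1 (Ighg1) with DESeq2, with DESeq2 under the treatment label and with DESeq2 without the 3 mice of conflicting labels, and 4 with DESeq2 without RS10_703 or edgeR without RS10_703 and RS10_721. Leaving out single mice gave 0 to 4, with 4 without RS10_703 and 1 without RS10_727. For the trend the count of 0 became 1 with DESeq2, 1 with limma-voom, 4 with DESeq2 without RS10_703 and 3 without RS10_703 and RS10_721, and 0 to 3 when single mice were left out (3 without RS10_703, 1 without RS10_715). For any difference it became 1 with DESeq2 and 4 with DESeq2 without RS10_703, and stayed at 0 for every single mouse left out. At 5 and 2% RPS the count was 0 under every alternative. Over all genes the calls at 10% RPS numbered 7 and ranged from 0 (treatment label) to 344 (DESeq2 without RS10_703), and the trend calls numbered 375 and ranged from 0 to 1476 under the same settings. At 5% RPS DESeq2 called 29 genes and at 2% RPS at most 3, against 0 by edgeR.

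The log2 fold change of Ighg1 at 10% RPS stayed between 2.74 and 3.38 when single mice were left out. It was 2.76 with the treatment label in edgeR (adjusted p = 0.377) and 3.04 without the 3 mice of conflicting labels (adjusted p = 0.175). Over all alternatives its adjusted p ran from 0.000373 to 0.377. Values that changed sign were those of Ighg2b (0.68 with limma-voom, 1.30 with DESeq2 without RS10_703 and 1.30 without RS10_703 and RS10_721), Ighg2c (0.87, 1.88 and 1.86) and Ighg3 (0.28, 0.36 and 0.34). Leaving out single mice gave -0.45 to 1.30 for Ighg2b, -2.37 to 1.86 for Ighg2c and -0.54 to 0.35 for Ighg3.

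The difference in mean share of heavy chain reads between 10 and 0% RPS was 1.30 percentage points for Ighg1 (0.997 to 1.49 with single mice left out) and 2.75 for Igha (1.82 to 3.68). The median ratio of Igha to Pigr per kilobase was 0.536 by exon length and 1.24 by transcript length.

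Ighg2c and Ighg3 rest on as few as 1 and 4 reads in a mouse. Cages and litters are not given in the labels, and p-values measure only the spread between these mice.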

Other observations

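Mouse RS10_715 at 2% RPS held 133 Ighd reads per 100 Ighm reads. The next highest mouse was RS10_712, in the same diet, with 79.3. This mouse also had the highest IgG share of heavy chain reads of the 20, 4.52%, where the median mouse had 2.16%. Control mouse RS10_708 held the lowest ratio, 29.6, and the lowest IgG share, 0.606%.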
